A study of Mus musculus with 8 samples.

Results

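Embryonic kidneys of vehicle-treated mice were compared between a late pair of stages (E16.5 and E18.5) and an early pair (E12.5 and E14.5), so that the comparison follows kidney development in the absence of the pesticide that the study tested. The members were the libraries labelled with the agent DMSO, 4 of the 8 libraries of the series, with 1 library at each stage and 2 libraries on each side. All came from ICR mice, an outbred strain. The pregnant dams, 8 weeks old, were injected subcutaneously once a day with dimethyl sulfoxide (DMSO) on gestation days 7.5 to 11.5, in the volume used for the treated dams. The other 4 libraries came from the same stages after chlorpyrifos (CPF, an organophosphate insecticide) at 5 mg/kg on the same days, dissolved in DMSO. All animals had thus received DMSO, and the earliest kidneys were taken the day after the last injection. The sources used here do not say how many embryos or litters a library holds, and the 2 libraries of a side are different stages, so p-values measure the spread between neighbouring stages and not between animals.

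The kidney forms from 3 interacting populations. Nephron progenitors, which express Six2 and Wt1, cap the tips of the branching ureteric bud and form nephrons from the glomerulus to the distal tubule; the bud itself forms the collecting ducts; and Foxd1-positive stroma gives rise to interstitial, mural and mesangial cells. Rounds of nephron formation overlap until after birth in the mouse, so a late embryonic kidney holds new progenitors beside tubules that already carry transporters.

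Levels are TPM, a share of all transcripts scaled by transcript length, so genes can be compared within a library. The share of the deposited TPM that belonged to protein-coding (NM) transcripts was lower at each later stage, at 75.1% at E12.5, 69.7% at E14.5, 63.2% at E16.5 and 53.3% at E18.5. The remainder was mostly 2 structural RNAs, Rpph1 and Rmrp, which held 19.6, 23.6, 31.0 and 41.8% of the deposited TPM in stage order, against 19.3 to 21.8% in the CPF libraries. Because this share moved with stage, each library was rescaled so that its NM transcripts sum to 1000000, and levels below are rescaled TPM unless stated. On this scale the median log2 difference of all tested genes was -0.01, against -0.29 for TPM as deposited. Between 12483 and 13382 genes reached 1 TPM in a DMSO library. Genes with several RefSeq transcripts were mostly near 0 in the files; Gapdh, used by every cell, had 2 transcripts and was listed at 0, 0.645, 0.0840 and 0 TPM, so a value of 0 is described only as listed at 0. Genes that define the embryonic kidney were present: Wt1 was at 206, 146, 164 and 131 TPM and Six2 at 109.6, 72.5, 65.8 and 65.8 TPM in the order E12.5, E14.5, E16.5, E18.5, the order used throughout.

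More genes were called higher than lower in late DMSO kidneys, and of 38 gene lists the proximal tubule had the most called members. Of 13410 genes tested, 110 (0.82%) rose and 9 (0.0671%) fell, 119 (0.887%) in all, at an adjusted p under 0.05 (limma on log2(TPM + 1), Benjamini-Hochberg over all tested genes). On TPM as deposited, 373 (2.97%) of 12550 tested genes were called higher and 273 (2.18%) lower, with 109 of the 110 and all 9 among them. At an unadjusted p under 0.05 the numbers were 1245 higher and 506 lower. With no filter on low values limma called 0 genes (2016 at an unadjusted p under 0.05), and with the spread taken from all 8 libraries it also called 0 (1339 at an unadjusted p under 0.05). The 110 genes that rose differed by 1.35 to 6.11 log2 units, with a median of 2.95. Of the 110, 37 had under 1 TPM in both early libraries, and of the 9 that fell 5 had under 1 TPM in both late ones, so these passed the filter (1 TPM in 2 libraries) only through the side where they were high. Without any test, both late values lay above both early values for 3319 genes (24.8%) and below them for 2702 (20.1%). On rescaled TPM the late minus early difference was above 0 for 6555 genes (48.9%). The list counts below are to be read beside these shares of all tested genes. All 110 genes made their largest step between E14.5 and E16.5, where the median step was 2.64 log2 units, against 0.39 before and 0.49 after; a test of 2 stages against 2 favours genes that move between the sides and little within them. Leaving out 1 library raised the number of higher genes in all but 1 case (91 with E12.5 left out, 556 with E14.5 left out, 386 for E16.5 and 220 for E18.5), and 49 of the 110 were called in all 4 of these fits. Each sets 1 library against 2, so the spread comes from the 2 stages of the other side alone and the lone library is assumed to vary as they do.

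**Figure D1:**
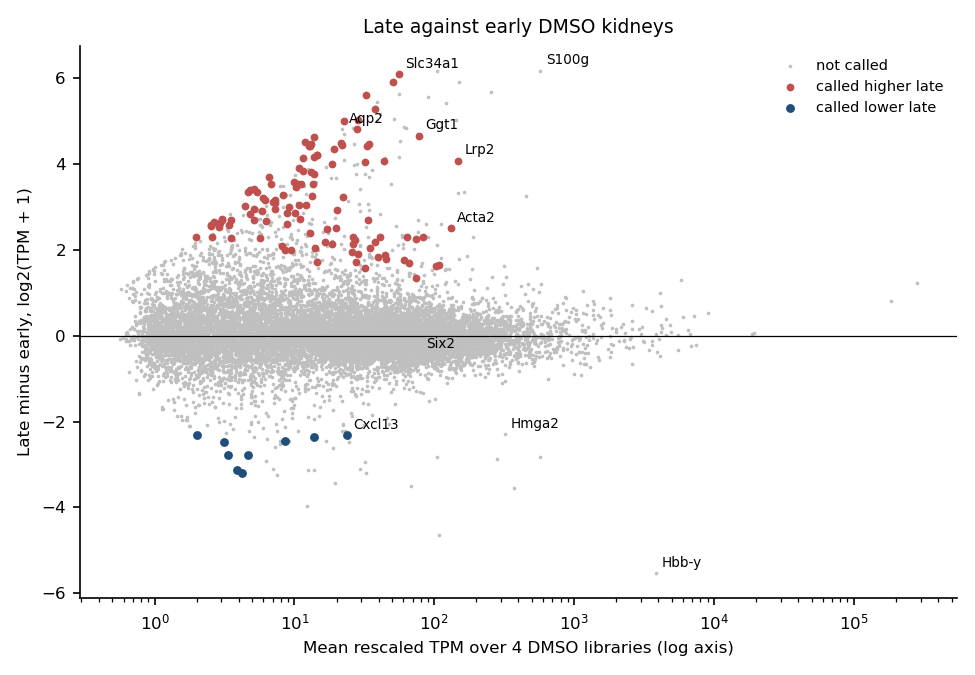
Each point is 1 of 13410 tested genes, with the mean rescaled TPM over the 4 DMSO libraries on a log x axis and the late minus early difference in log2(TPM + 1) on the y axis. The 110 genes called higher (red) lie between 1.35 and 6.11, and the 9 called lower (blue) have low means, while Hbb-y and S100g differ widely but were not called.

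The proximal tubule reclaims phosphate, glucose, amino acids and filtered proteins, and its cells are the main reabsorbing cells of the nephron. Of 40 listed proximal tubule genes 30 were tested, and 11 rose (0.82% of all tested genes did) and none fell. All 30 had both late values above both early values (24.8% of all tested genes did). The median late minus early difference of the 30 was 3.95 log2 units, beside -0.01 for all tested genes. Of the 30, 7 had both early values under 1 TPM and so passed the filter through the late side alone. Since these are bulk kidneys, fewer cells of a type and less RNA per cell cannot be told apart in this or any later result.

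Slc34a1 (chr13:55399622-55414695, GRCm38), the brush-border sodium-phosphate cotransporter NaPi-2a, was listed at 0, 1.24, 66.3 and 157 TPM. Its late values were far above both early ones, a difference of 6.11 ± 0.55 log2 units (SE, limma adjusted p = 0.019), the largest of the genes that rose. Lrp2 (megalin; chr2:69424335-69586029), the large endocytic receptor for filtered proteins, was at 13.2, 15.4, 168 and 396 TPM. It was flat across the early stages and rose by 4.08 ± 0.41 log2 units (SE, adjusted p = 0.0236). Cubn (cubilin), megalin's partner receptor, was at 1.09, 2.77, 38.1 and 91.2 TPM and rose by 4.42 ± 0.49 (SE, adjusted p = 0.0239). Amn, which carries cubilin to the membrane and was outside the list, was at 0.448, 1.01, 12.8 and 19 TPM, also higher in both late libraries and called. The receptors of this uptake route thus all passed the test, at different levels.

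Ggt1, a brush-border enzyme that splits glutathione, was at 3.31, 6.33, 101 and 199 TPM and rose by 4.67 ± 0.41 log2 units (SE, adjusted p = 0.0155). Mep1b, the beta subunit of the brush-border protease meprin, was at 0, 0.497, 37.7 and 91.9 TPM, a difference of 5.62 ± 0.48 (SE, adjusted p = 0.0155). Napsa, an aspartic protease, was at 1.6, 1.83, 36.3 and 96.8 TPM and rose by 4.48 ± 0.47 (SE, adjusted p = 0.019). In each of these 3 enzymes the E18.5 value was the highest and the early values were at most 6.33 TPM. Pck1, the committing enzyme of gluconeogenesis, was listed at 0, 0.0542, 15.9 and 31.3 TPM. Its early values were at or near 0 and its difference was 4.51 ± 0.43 log2 units (SE, adjusted p = 0.0155).

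Transporters of organic ions, sulfate and monocarboxylates rose as well. Slc22a6 (OAT1), which takes up organic anions from blood, was at 0.0267, 0.703, 12.2 and 41.9 TPM. Slc22a12 (URAT1), the urate exchanger, was at 0, 1.07, 16.6 and 25.8 TPM. Slc22a2 (OCT2), an organic cation transporter, was at 0.101, 0, 5.7 and 15.9 TPM. All 3 passed the test, and the highest early value among them was 1.07 TPM. Slc13a1, the sodium-sulfate cotransporter, was at 0, 0.968, 9.31 and 14.4 TPM and was called. Slc5a8, which carries lactate and other monocarboxylates with sodium, was at 0.343, 1.04, 20.1 and 64.2 TPM and rose by 4.49 ± 0.57 log2 units (SE, adjusted p = 0.0304). Across the whole table, 13 of the 110 genes that rose carry an Slc symbol (11.8%), against 1.82% of all tested genes; this family was picked out after the values were seen.

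Other proximal tubule genes did not pass although their late values were high. Fbp1, a gluconeogenic phosphatase, was at 0.0728, 1.25, 21.3 and 141 TPM. Spp2 was at 0, 10.3, 98.1 and 255 TPM and Hnf4a, a transcription factor of tubule and liver, at 0.0493, 8.44, 45 and 52.6 TPM. Each of these 3 differed widely within a side, early or late. With embryonic day as a slope in place of the sides, 20 of the 30 listed genes rose (3.01% of all tested genes did). Slc5a2, the glucose transporter SGLT2, had low values of 1.29, 0.755, 3.98 and 4.51 TPM.

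The promoters of the proximal tubule genes were read for the core letters of the site bound by HNF1, a transcription factor family of tubule cells. RefSeq windows of GRCm38.p6, from 250 bases before to 50 after the start, were found for 25 of the 30 genes. The letters GTTAAT, on either strand, were in 6 of them (24%): Hnf4a, Miox, Pck1, Slc22a6, Slc34a1 and Slc3a1. They were in 5.41% of the 9514 tested genes with a window and in 8.24% of all 27025 genes in the table. A longer HNF1 motif, which contains this core, was in 0 of the 25 and in 0.41% of tested genes, and an HNF4 motif (CAAAGTCCA or CAAAGTTCA) was in 1 of the 25 (4%) and 0.936% of tested genes. Such matches are letters in a window and not binding sites. The 3 genes of these 6 that passed the test are shown, together with Atp6v0a4, a gene of intercalated cells that rose and holds the longer motif. Each sequence is the 250 bases before the start, 5′ to 3′ on the gene's strand, with the core or longer motif in capitals (ATTAAC is the core read from the other strand). They are Slc34a1 at chr13:55399398-55399647 (plus strand), Slc22a6 at chr19:8617746-8617995 (plus), Pck1 at chr2:173152823-173153072 (plus) and Atp6v0a4 at chr6:38124587-38124836 (minus).
Slc34a1: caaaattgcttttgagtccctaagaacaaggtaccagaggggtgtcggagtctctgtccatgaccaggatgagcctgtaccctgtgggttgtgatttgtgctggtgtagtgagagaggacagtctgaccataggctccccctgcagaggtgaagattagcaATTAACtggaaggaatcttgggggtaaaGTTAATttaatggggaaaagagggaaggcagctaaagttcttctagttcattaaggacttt
Slc22a6: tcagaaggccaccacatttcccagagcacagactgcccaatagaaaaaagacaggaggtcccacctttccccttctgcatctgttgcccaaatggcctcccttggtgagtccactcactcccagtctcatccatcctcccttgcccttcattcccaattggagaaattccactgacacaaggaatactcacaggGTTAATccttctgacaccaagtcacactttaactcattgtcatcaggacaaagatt
Pck1: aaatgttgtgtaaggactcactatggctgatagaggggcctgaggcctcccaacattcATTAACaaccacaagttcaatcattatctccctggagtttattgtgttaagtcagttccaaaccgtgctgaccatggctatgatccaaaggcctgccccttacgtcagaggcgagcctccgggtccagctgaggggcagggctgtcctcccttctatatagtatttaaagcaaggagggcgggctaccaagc
Atp6v0a4: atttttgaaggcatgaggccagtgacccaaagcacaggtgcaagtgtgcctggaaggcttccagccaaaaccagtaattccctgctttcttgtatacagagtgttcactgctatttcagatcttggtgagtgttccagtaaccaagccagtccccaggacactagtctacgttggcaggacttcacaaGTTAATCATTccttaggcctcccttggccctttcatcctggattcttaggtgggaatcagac
Slc34a1 holds the core at 2 places, beginning 89 and 61 bases before the start. In Slc22a6 it begins 56 bases before the start, in Pck1 192 bases, and in Atp6v0a4 the longer match begins 62 bases before it.

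Podocytes wrap the glomerular capillaries and form the slit diaphragm. Of 24 listed podocyte genes 17 were tested and 2 rose (0.82% of all tested genes did). Of the 17, 13 were above 0, against 48.9% of all tested genes, and the median difference was 0.74. Clic5, an intracellular channel protein of foot processes, was at 0.292, 2.89, 20.7 and 30.8 TPM and rose by 3.55 ± 0.56 log2 units (SE, adjusted p = 0.047). Nphs1 (nephrin), the main slit-diaphragm protein, was at 0, 1.71, 14.4 and 6.71 TPM. It was higher in both late libraries but highest at E16.5, and its difference of 2.73 ± 0.58 did not pass (SE, adjusted p = 0.109). Transcription factors that podocytes share with younger cells stood elsewhere: Foxc2 was at 139, 52.4, 71.9 and 37.3 TPM and Lmx1b at 15.4, 6.65, 6.33 and 5.73 TPM, both highest at E12.5 and neither called. Col4a3 and Col4a4, chains of the mature glomerular basement membrane, were at 0.0125, 1.68, 6.27 and 17.5 TPM and 0.511, 5.6, 9.83 and 21.8 TPM, higher at each stage than at the one before and not called between the sides.

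Genes of the forming nephron had smaller differences. In the early nephron list 1 of 15 tested genes rose (0.82% of all tested genes did) and the median difference was 0.57. Irx1, an Iroquois transcription factor of the intermediate tubule, was at 0.312, 1.24, 15.7 and 11.7 TPM, a rise of 3.09 ± 0.42 log2 units (SE, adjusted p = 0.0265). Its neighbour family member Irx2 was at 0.218, 1.84, 12.9 and 8.01 TPM and was not called. Wnt4, the signal that converts progenitors to epithelium, was at 42.3, 17.8, 33.9 and 25.9 TPM, with overlapping sides. Npy was at 12.47, 41.5, 9.24 and 10.5 TPM, highest at E14.5. The summed sympathoadrenal and liver genes described below were highest in that library too, and the part of other tissues in this value was not tested.

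Genes of the loop of Henle and distal tubule were higher late as a group, with a median difference of 1.91. Of 14 tested, 13 were above 0 and 2 were called higher, against 48.9% and 0.82% of all tested genes. Bsnd (barttin), an accessory subunit of ion channels, was at 0.672, 1.04, 17.5 and 21.9 TPM and rose by 3.48 ± 0.36 log2 units (SE, adjusted p = 0.0155). Slc12a1 (NKCC2), the salt cotransporter of the thick ascending limb, had only reached 0, 0.0306, 3.3 and 2.98 TPM and was not called. Sostdc1, a secreted BMP and Wnt antagonist, was at 3.18, 13.5, 74.8 and 106 TPM. It was not called between the sides but rose in the slope over embryonic day. Umod, the abundant urinary protein of the adult thick limb, had 2 transcripts, was listed at no more than 0.0433 TPM and was not tested. Of the 14 genes, 3 had both early values under 1 TPM.

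In the collecting duct, principal cells take up water and sodium and intercalated cells move acid. Of 13 tested principal cell genes 4 rose (median difference 1.35), against 0.82% of all tested genes. Aqp3, a basolateral water channel, was at 0.671, 3.21, 19.4 and 30.5 TPM, a rise of 3.26 ± 0.50 log2 units (SE, adjusted p = 0.0439). Aqp4, the other basolateral water channel, was at 0.76, 2.98, 15.8 and 21 TPM and rose by 2.86 ± 0.46 (SE, adjusted p = 0.0443). Scnn1g, the gamma subunit of the epithelial sodium channel, was at 6.46, 12.4, 39.9 and 46.2 TPM and rose by 2.14 ± 0.34 (SE, adjusted p = 0.0429). Tfcp2l1, a transcription factor of the duct, was at 39.6, 43.4, 106 and 108 TPM and rose by 1.35 ± 0.21 (SE, adjusted p = 0.0437), the smallest difference among the 110 genes. Aqp2, the vasopressin-regulated apical water channel, was listed at 0, 0, 8.97 and 79.2 TPM. Its early values were both listed at 0, its late values lay far apart, and it did not pass (adjusted p = 0.18). Genes already on in the bud, such as Hoxb7 at 69.9, 54.4, 70.3 and 70.4 TPM and Gata3 at 20.3, 18.3, 24.7 and 17 TPM, were level.

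All 12 tested intercalated cell genes were above 0 (48.9% of all tested genes were), 4 rose (0.82% did) and the median difference was 2.44. Of the 12, 4 had both early values under 1 TPM. Foxi1 (chr11:34204341-34208089), the transcription factor that specifies these cells, was at 0.0455, 0.12, 6.11 and 5.9 TPM, a rise of 2.69 ± 0.37 log2 units (SE, adjusted p = 0.0265). Atp6v1b1, a subunit of the proton pump, was at 0.336, 1.85, 18.8 and 34.4 TPM and rose by 3.76 ± 0.48 (SE, adjusted p = 0.026). Atp6v0d2, a further pump subunit, was at 0.172, 1.08, 7.63 and 14.7 TPM and rose by 2.90 ± 0.47 (SE, adjusted p = 0.0443). Rhcg, an ammonia channel, was at 5.51, 4.75, 27.3 and 42.2 TPM and rose by 2.52 ± 0.32 (SE, adjusted p = 0.0242). Atp6v0a4, outside the list and named after its values were seen, was at 0.263, 2.77, 25.6 and 45.9 TPM and rose by 4.02 ± 0.58 (SE, adjusted p = 0.0443). With it, 3 of 18 tested proton pump subunit genes rose, against 0.82% of all tested genes. This family count was also made after the values were seen. Slc26a4 (pendrin), which exchanges chloride for bicarbonate in one intercalated subtype, had reached 0.105, 0.507, 1.53 and 3.71 TPM.

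**Figure D2:**
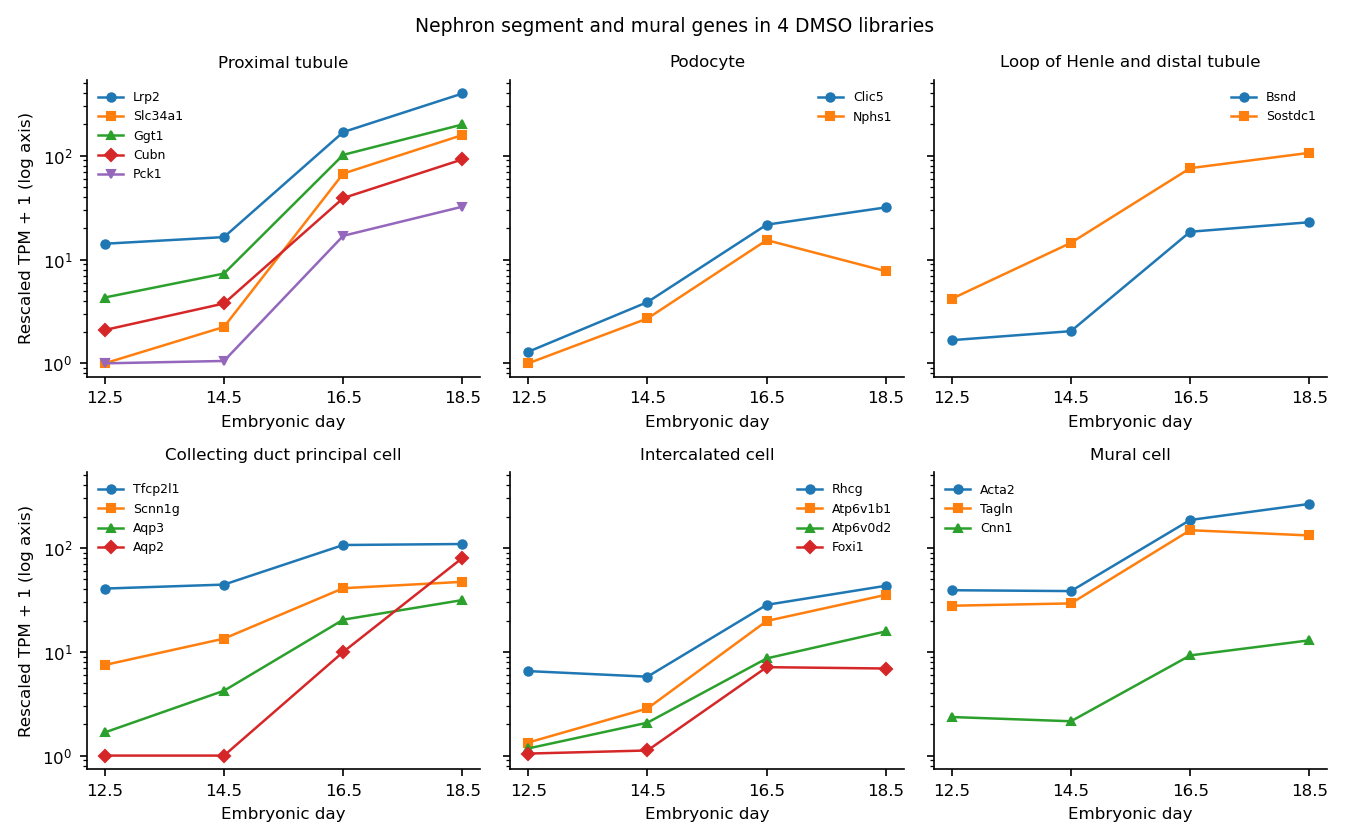
Rescaled TPM plus 1 on a shared log y axis against embryonic day, in 6 panels by cell type, with 1 DMSO library per point. Lrp2, Slc34a1, Clic5, Bsnd, Atp6v1b1 and Acta2 climb most between E14.5 and E16.5, while Aqp2 climbs again between E16.5 and E18.5 and Nphs1 is highest at E16.5.

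The urothelium, which lines the renal pelvis and ureter and makes uroplakins for its watertight surface, had no called gene among 8 tested, with 7 above 0 and a median of 2.59. Upk3a was listed at 0, 1.54, 34.4 and 115 TPM, a difference of 5.33 ± 0.73 log2 units that missed the threshold (SE, adjusted p = 0.0614). Upk1b was at 0.243, 4.09, 16.1 and 58.8 TPM and Upk1a at 1.48, 2.61, 4.99 and 38.6 TPM. The median depended on E18.5 and was 0.82 without that library. In the slope over embryonic day 4 of the 8 rose, all uroplakins (3.01% of all tested genes did). Krt7, a simple epithelial keratin outside the list, was at 26.7, 34.8, 91.5 and 111 TPM and was called.

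Of 20 tested claudins and cadherins 2 rose (median 0.57), against 0.82% of all tested genes. Cldn2, which forms the paracellular cation pore of the proximal tubule, was at 0.42, 1.47, 35.4 and 75.4 TPM and rose by 4.81 ± 0.46 log2 units (SE, adjusted p = 0.0155). Cldn11 was at 13.6, 19.1, 77.9 and 47.4 TPM and rose by 1.85 ± 0.32 (SE, adjusted p = 0.0493), highest at E16.5. Cdh1 (E-cadherin), the epithelial cadherin, was at 41.7, 59, 103 and 107 TPM. Cdh2 (N-cadherin) was at 171, 98.8, 85 and 64.7 TPM, in opposite order. Neither was called between the sides. Both were called in the slope over embryonic day, where 3.01% of all tested genes rose and 1.07% fell. Of 22 basement membrane genes none was called and 21 were above 0 (median 0.55; 17 and 0.23 on deposited TPM). Col4a1, the most abundant collagen IV chain, was at 327, 244, 639.5 and 669 TPM, with both late values above both early ones.

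Of 12 tested mural genes 3 were called, all smooth muscle genes that rose between E14.5 and E16.5 (0.82% of all tested genes rose). The median difference of the list was 0.91. Of the 12, 10 were above 0 (48.9% of all tested genes were) and 7 had both late values above both early ones (24.8% did). Acta2 (chr19:34240336-34255585), smooth muscle actin, was at 38.2, 37.4, 185 and 265 TPM and rose by 2.52 ± 0.25 log2 units (SE, adjusted p = 0.0155). Tagln (transgelin) was at 26.8, 28.2, 147 and 131 TPM and rose by 2.30 ± 0.22 (SE, adjusted p = 0.0155). Cnn1 (calponin) was at 1.35, 1.14, 8.22 and 11.9 TPM and rose by 2.28 ± 0.38 (SE, adjusted p = 0.0443). The early pair of each was within a narrow range, and so was the late pair. The pericyte members Rgs5 and Notch3 had overlapping sides: Rgs5 was at 46.4, 73.3, 69.1 and 87.1 TPM and Notch3 at 76.4, 39.8, 51.5 and 34.7 TPM. In the slope over embryonic day 2 of the 12 mural genes rose and 1 fell, among Des, Kcnj8 and Myl9. Of all tested genes 3.01% rose and 1.07% fell in that slope. Mir145a, a hairpin of smooth muscle chosen after its values were seen, was at 3.1, 6.14, 30.8 and 28 TPM and rose by 2.49 ± 0.35 (SE, adjusted p = 0.0318). Thbs1 (thrombospondin) and Mylk (myosin light chain kinase) were at 51.8, 47.9, 169 and 146 TPM and 26.5, 27.6, 81.5 and 108 TPM, both called.

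The stromal, endothelial and macrophage lists held no called gene. In the stromal list 12 of 19 tested genes were above 0 with a median of 0.24, and -0.05 on deposited TPM. Foxd1, the marker of stromal progenitors, was at 171, 74.7, 46.4 and 41.5 TPM, a difference of -1.34 ± 0.39 log2 units that did not pass (SE, adjusted p = 0.213); it was called lower in the slope over embryonic day (adjusted p = 0.0315). Penk (proenkephalin), made by late medullary stroma, was at 10.3, 68.4, 313 and 259.6 TPM and was not called. The 15 endothelial genes were all above 0 on rescaled TPM (median 0.47), and 10 were on deposited TPM (median 0.18), with Cdh5, the endothelial cadherin, at 85.5, 60.2, 95.9 and 83.6 TPM. Of 14 macrophage genes 12 were above 0 (median 0.52; 9 and 0.22 on deposited TPM). Lyz2 (lysozyme) was at 6.31, 29.4, 41.8 and 64.8 TPM and C1qa, a complement subunit, at 11.5, 21.3, 23.2 and 21.4 TPM, both lowest at E12.5.

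No nephron progenitor or ureteric tip gene was called between the sides. Of 20 progenitor genes 8 were above 0 and the median difference was -0.28; without E12.5 it was 0.01. Six2 differed by -0.43 ± 0.26 log2 units (SE, adjusted p = 0.54), its values being level from E14.5. Gdnf, the growth factor that drives bud branching, was at 61.2, 64.2, 45.1 and 57.5 TPM. Itga8 (integrin alpha 8) was at 140.2, 151, 167 and 249.9 TPM, highest at E18.5. In the slope over embryonic day Meox2 fell and Traf1 rose. The median of 14 ureteric tip genes was 0.004, or -0.29 on deposited TPM. Etv4, a target of RET signalling, was at 166, 133, 119 and 154 TPM. Adamts18, a secreted protease of bud tips, was at 67.6, 12.2, 7.84 and 3.77 TPM, a difference of -2.21 ± 0.90 that did not pass (SE, adjusted p = 0.425); it was called lower in the slope over embryonic day (adjusted p = 0.0292).

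**Figure D3:**
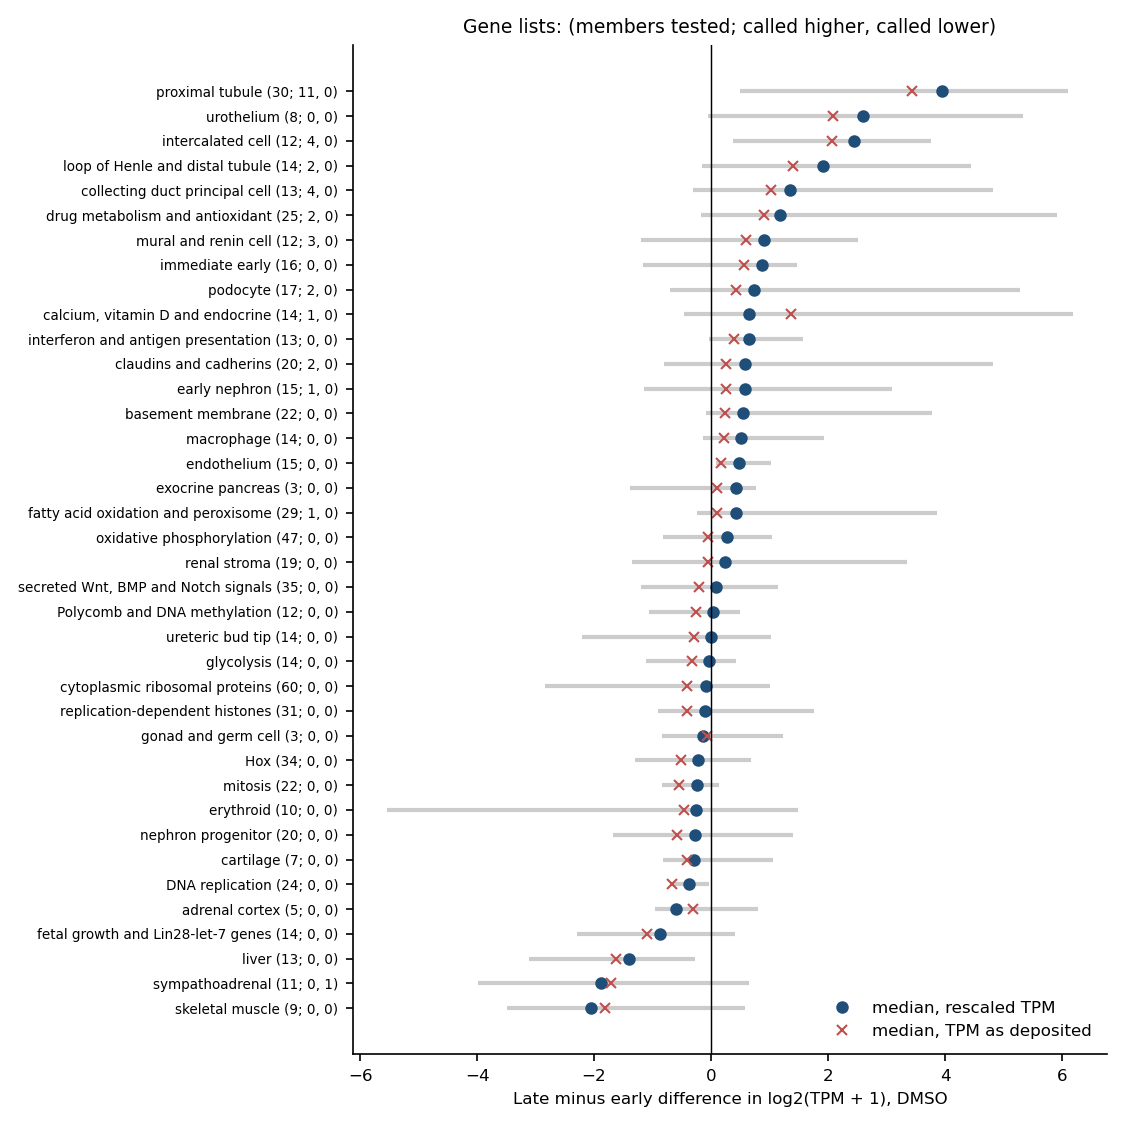
Late minus early difference in log2(TPM + 1) for 38 gene lists in the DMSO libraries; circles are list medians on rescaled TPM, crosses on deposited TPM, and grey bars run from the lowest to the highest member. The proximal tubule list lies furthest right with a median of 3.95, and skeletal muscle furthest left with -2.06.

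Enzyme genes of metabolism and detoxification held a few called members, and how many lay above 0 varied with the scaling. Of 25 tested drug metabolism and antioxidant genes 2 rose (0.82% of all tested genes did). On rescaled TPM 24 were above 0 (median 1.18), against 48.9% of all tested genes, and on deposited TPM 19 were (median 0.91). Gsta2, a glutathione transferase that is also in the proximal tubule list, was at 0, 0.666, 26.2 and 63.2 TPM and rose by 5.02 ± 0.50 log2 units (SE, adjusted p = 0.0155). Cyp4a10, a fatty acid hydroxylase, was at 0, 0.136, 4.16 and 7.46 TPM and rose by 2.63 ± 0.41 (SE, adjusted p = 0.0424). Ugt2b37, a glucuronosyltransferase outside the list, was at 0, 1.88, 41.4 and 71.3 TPM and rose by 5.03 ± 0.56 (SE, adjusted p = 0.0242). Sult1d1, a sulfotransferase, was at 0, 19.8, 193 and 390.2 TPM. It was not called between the sides but rose in the slope over embryonic day. Of 29 fatty acid oxidation and peroxisome genes 1 rose and 27 were above 0 (median 0.42), against 16 on deposited TPM (median 0.11). The gene that rose was Acaa1b, a peroxisomal thiolase, at 2.2, 1.36, 15.5 and 16.2 TPM (2.61 ± 0.35 log2 units, SE, adjusted p = 0.0265). Of 47 nuclear oxidative phosphorylation genes none was called. On rescaled TPM 42 were above 0 (median 0.27), and on deposited TPM 17 were (median -0.04), so the direction of that list follows the scaling.

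Hormone and calcium genes of the kidney rose in 1 of 14 cases (median 0.66). Kl (klotho), the co-receptor for FGF23, was at 0.335, 0.939, 17.5 and 57.8 TPM and rose by 4.36 ± 0.58 log2 units (SE, adjusted p = 0.0336). S100g (calbindin-D9k), a calcium-binding protein, was at 1.35, 48.8, 323 and 1906 TPM. It was higher at each stage than at the one before, differed by 6.18 ± 2.12 between the sides and did not pass (SE, adjusted p = 0.423), but its slope over embryonic day did (adjusted p = 0.0126). Vdr, the vitamin D receptor, was at 0.296, 1.53, 5.56 and 12.6 TPM and Agtr1a, an angiotensin receptor, at 1.69, 2.91, 11.2 and 21.8 TPM. Both were higher in both late libraries and not called between the sides.

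Outside the lists, Defb1, an antimicrobial beta-defensin, was at 0, 0.927, 44.2 and 157 TPM and rose by 5.93 ± 0.68 log2 units (SE, adjusted p = 0.0396). The following genes were chosen after their values were seen. Hdc, which makes histamine, was at 2.51, 2.84, 48.1 and 74 TPM and rose by 4.05 ± 0.32 (SE, adjusted p = 0.0155). Fabp3, a fatty acid carrier, was at 7.24, 8.66, 43.7 and 74 TPM and rose by 2.70 ± 0.32 (SE, adjusted p = 0.0224). Gas6, a ligand of TAM receptors, was at 9.72, 17.5, 68.3 and 68.8 TPM and rose by 2.30 ± 0.31 (SE, adjusted p = 0.0265). Neat1, a long non-coding RNA of paraspeckles, was at 5.53, 11.1, 53.8 and 34.5 TPM and rose by 2.31 ± 0.38 (SE, adjusted p = 0.0443). Of the 110 genes, 32 were members of a list.

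Of the 9 genes that fell, 1 had both a protein-coding transcript and a mean of at least 20 TPM. Cxcl13 (chr5:95956939-95961068), a chemokine that attracts B cells, was at 37.9, 42.3, 9.1 and 5.7 TPM, a difference of -2.32 ± 0.30 log2 units (SE, adjusted p = 0.026). The early values were close together and the late values clearly below them. Among genes with 1 transcript, that mean and sides that do not overlap, the other 11 of the 12 largest differences towards lower late levels did not pass. They were the embryonic globins Hbb-y, Hbb-bh1 and Hba-x, the skeletal muscle list members Actc1 and Myh3, and the liver list member Apoa2. The rest were the fetal growth gene Hmga2, the ureteric tip gene Adamts18, and Tnnc1, Tbx18 and Rps2. Rps2, a ribosomal protein gene, was one of them only through its E16.5 value, at 754, 1083, 39.2 and 400.2 TPM.

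Embryonic globins, made by primitive red cells of the yolk sac, spanned a wide range. They belong to a list of erythroid genes of which 10 were tested and none was called. Of the 10, 5 were above 0 and 5 below, with a median of -0.26 and a highest difference of 1.48. Both late values lay below both early ones for 4 of them (20.1% of all tested genes did). Hbb-y was at 9240.2, 5365, 729 and 30.5 TPM, -5.54 ± 1.78 log2 units between the sides (SE, adjusted p = 0.362). Hba-x was at 1122, 247, 94.3 and 20.6 TPM and Hbb-bh1 at 334, 82.1, 17 and 1.5 TPM. All 3 were lower at each stage than at the one before. In the slope over embryonic day Hba-x and Hbb-bh1 fell (adjusted p = 0.00112 each) and Hbb-y did not pass (adjusted p = 0.0593).

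A list of fetal growth genes held members of the Lin28 and let-7 circuit, which keeps fetal tissues growing, beside imprinted and other growth genes. None of the 14 tested was called between the sides, 1 was above 0, 11 had both late values below both early ones (20.1% of all tested genes did), and the median was -0.87. Lin28b, the RNA-binding protein that blocks let-7 maturation, was at 25.6, 10.9, 4.24 and 1.77 TPM, a difference of -2.22 ± 0.50 log2 units (SE, adjusted p = 0.116). Hmga2 (chr10:120361268-120476469), a chromatin protein and let-7 target, was at 786, 284, 139.6 and 65.1 TPM, a difference of -2.29 ± 0.64 (SE, adjusted p = 0.278). Igf2bp1, an mRNA-binding protein and let-7 target, was at 206, 73.3, 61.5 and 29 TPM, a difference of -1.52 ± 0.64 (SE, adjusted p = 0.435). Each was lower at every stage than at the one before. In the slope over embryonic day, where 1.07% of all tested genes fell, 7 of the 14 fell: Lin28b, Igf2bp1, Igf2bp2, Igf2bp3, Hmga2, Peg3 and Trim71.

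**Figure D4:**
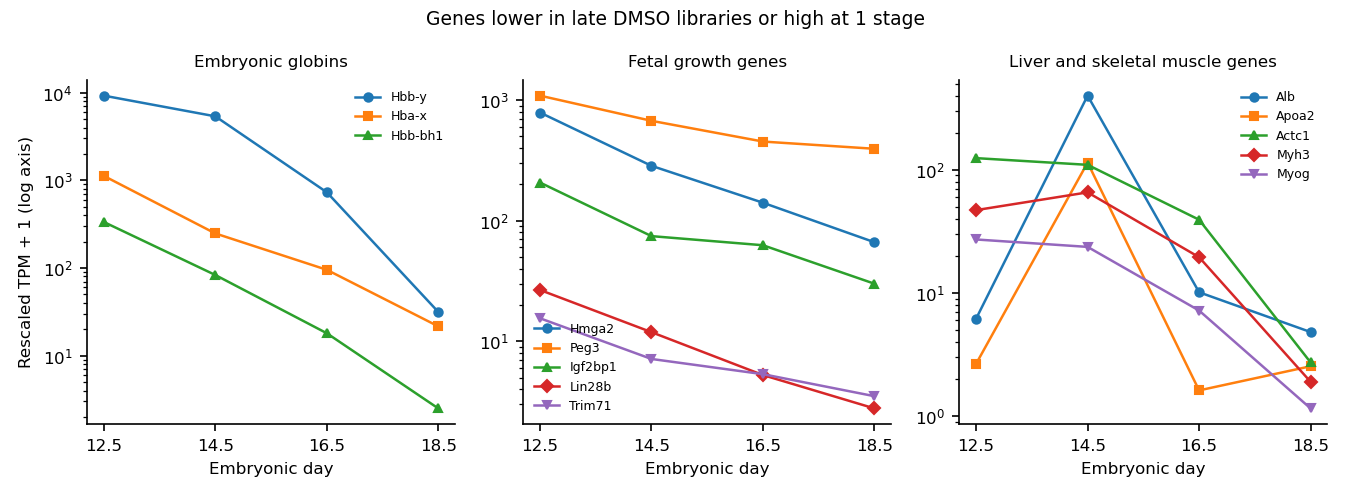
Rescaled TPM plus 1 on log y axes, which differ between the 3 panels, against embryonic day, with 1 DMSO library per point. The globins and fetal growth genes are lower at each stage, the muscle genes are lowest at E18.5, and Alb and Apoa2 are high at E14.5 alone.

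Cell division genes were slightly lower late. None of 24 DNA replication genes was above 0 and 14 had both late values below both early ones (20.1% of all tested genes did), with a median of -0.38 and no call. None of 22 mitosis genes was called either (median -0.24, 2 above 0), and without E18.5 the medians were -0.23 and -0.10. Rrm1, a subunit of ribonucleotide reductase, was at 487, 480.5, 371 and 259 TPM. Mki67, the proliferation antigen, was at 475, 539, 488 and 434 TPM, with overlapping sides. Promoters were searched for letters that are known cell cycle elements, and a gene was counted when any of its RefSeq promoters held them. The CCAAT box was found for 15 of 18 replication genes with a promoter (83.3%) and 16 of 20 mitosis genes (80%), against 41.1% of tested genes. An E2F motif (TTCCCGCC or TTTGGCGC) was found for 8 of the 18 (44.4%), against 5.41%, and the CHR letters TTTGAA for 16 of the 20 mitosis genes (80%), against 13.7%, both strands counted.

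Of the 9 genes that fell, 6 were microRNA hairpins, which are rows for the precursor and say nothing of the mature microRNA. Of 552 tested hairpins (4.12% of all tested genes) 9 rose and 6 fell. Hairpins were 8.18% of the genes called higher. Over all tested genes 0.82% rose and 0.0671% fell. The 6 hairpins are 58 to 121 bases long and 1 read in 100 bases was worth an estimated 1.07 to 1.42 TPM, so these values rest on few reads. Mir222 was listed at 8.24, 7.24, 0 and 0 TPM (adjusted p = 0.0224), Mir1934 at 6.53, 10.3, 0 and 0 TPM (adjusted p = 0.0236) and Mir1193 at 17, 30.6, 3.55 and 3.79 TPM (adjusted p = 0.0424). Mir7682 was at 13.2, 17.3, 1.87 and 2 TPM, Mir6538 at 9.83, 7.77, 0 and 1.04 TPM and Mir7665 at 3.46, 4.56, 0 and 0 TPM. Both late values were under both early values in each, and 0 was listed in both late libraries for 3 of them. Their mature sequences, from the RefSeq annotation of GRCm38.p6, are shown with the seed (bases 2 to 8) in capitals to see whether the hairpins belong to 1 family.
miR-222-3p: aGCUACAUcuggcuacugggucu
miR-1934-5p: uCUGGUCCccugcuucguccucu
miR-1934-3p: aGGAUGACgguggggcugguga
miR-1193-5p: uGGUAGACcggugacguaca
miR-1193-3p: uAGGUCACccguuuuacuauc
miR-7682-5p: aGGCACGAcucuugccacagaaac
miR-6538: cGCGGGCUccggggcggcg
miR-7665-3p: aGCCAGGUcccuguccccuaca
The 8 sequences have 8 different seeds, so no seed is shared among those shown. For Mir222, Mir7682, Mir6538 and Mir7665 only 1 mature sequence was available. Of all 15 hairpins called in either direction 12 were matched in the table, and their 20 mature sequences have 20 different seeds.

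Genes of neighbouring organs were present and moved between libraries. Of 11 tested sympathoadrenal genes, which mark adrenal medulla and sympathetic neurons, 1 fell and 9 had both late values below both early ones, which 20.1% of all tested genes did (median -1.89, and -0.17 without E14.5). Hand2, a transcription factor of these neurons, was at 4.56, 8.79, 0.0953 and 0.0509 TPM and fell, a difference of -2.78 ± 0.42 log2 units (SE, adjusted p = 0.0377). Isl1, a further factor of these and other neurons, was at 6.59, 5.49, 0.38 and 0.135 TPM and fell (-2.49 ± 0.38, SE, adjusted p = 0.0377). Dbh, the noradrenaline-making enzyme, was at 4.72, 44.6, 0 and 0.0501 TPM and Th, tyrosine hydroxylase, at 2.4, 27.5, 0.061 and 0 TPM, both highest at E14.5. The summed level of the 11 genes was 62.1, 226, 31.6 and 29.8 TPM, highest at E14.5 as Hand2 was, while Isl1 was highest at E12.5. The part of these tissues in the fall of Hand2 and Isl1 was not tested.

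Liver genes stood out in the E14.5 library. Alb (albumin) was at 5.18, 399, 9.13 and 3.81 TPM and Afp (alpha-fetoprotein) at 8.84, 549.6, 73.9 and 49 TPM. The summed level of 13 tested liver genes was 36.6, 1556, 124 and 92.1 TPM, no gene was called, and all 13 were below 0 (median -1.40). The list's median step was 5.00 log2 units up into E14.5 and 3.40 down after it. Hnf4a, a proximal tubule gene that liver also expresses, was at 8.44 TPM in that library, and the part of liver RNA in this value was not tested. Without the E14.5 library, E12.5 alone stands for the early side and the spread comes from the 2 late stages. The 110 genes that rose were called in these same libraries by a test that favours little movement within a side. That fit thus cannot show whether their calls hinge on the E14.5 library.

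Skeletal muscle genes were lower late in 8 of 9 tested cases, 7 of them with both late values below both early ones, against 20.1% of all tested genes (median -2.06), and none was called. Actc1, cardiac actin that embryonic muscle also makes, was at 123, 109, 38.3 and 1.73 TPM, a difference of -3.50 ± 1.49 log2 units (SE, adjusted p = 0.474). Myh3, embryonic myosin, was at 46.1, 64.6, 18.51 and 0.898 TPM and Myog (myogenin) at 26.2, 22.7, 6.2 and 0.154 TPM. The summed level of the 9 genes was 270, 311, 117 and 12.2 TPM, so the late libraries differed from each other as well. Immediate early genes, which respond within minutes to handling and many signals, were highest at E16.5: Fos was at 7.38, 6.08, 93.7 and 3.32 TPM and Egr1 at 13.6, 8.42, 43 and 10.3 TPM. Their summed level was 372, 279, 824 and 292 TPM and none of 16 was called.

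The stage course of all genes did not divide neatly at the midpoint. Of 10066 genes averaging 5 TPM or more, 973 were higher and 1286 lower at each stage than at the one before. Steps of at least 1 log2 unit up were made by 602 genes into E14.5, 491 into E16.5 and 166 into E18.5, and steps down by 196, 165 and 241. The step into E14.5 thus held more of these changes than the step that separates the sides. Each step compares 1 library with 1 library. The summed liver and sympathoadrenal genes were highest in the E14.5 library, and the part of other tissues in these steps was not tested.

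The 4 CPF libraries, which did not enter the fit of the DMSO libraries, were used to see whether the called genes moved the same way in other kidneys of the same stages. Of the 101 genes that rose and are not hairpins, 100 had both late values above both early ones in the CPF libraries, against 33.6% of all tested genes; the exception was Fam46c. Their median difference was 2.96 log2 units in DMSO and 3.28 in CPF. In a fit of all 8 libraries 16 of the 110 were also called higher in CPF, against 0.686% of the genes tested. The spread in that fit came partly from the DMSO libraries in which the 110 were called. These 16 calls are thus not independent of the DMSO fit. Of the 9 hairpins that rose 2 had both late CPF values above both early ones, with a CPF median of 0.06, and of the 6 hairpins that fell 1 had both late values below both early ones, against 23.4% of all tested genes. Cxcl13, Hand2 and Isl1 had CPF differences of -2.04, -1.35 and -1.45; Hand2 was at 6.43, 21.6, 25 and 0 TPM in CPF and Isl1 at 8.84, 20.3, 19.9 and 0.336 TPM, high at E16.5 also. A test of whether the late minus early difference depends on the agent called 0 of 14582 genes (limma; smallest adjusted p = 0.673; 1050 genes, 7.2%, at an unadjusted p under 0.05). With the DMSO and CPF libraries of a stage taken as a pair, which leaves 2 residual degrees of freedom, it also called 0 (smallest adjusted p = 0.309; 1724 genes at an unadjusted p under 0.05), which does not show that the 2 agents' courses are alike.

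**Figure D5:**
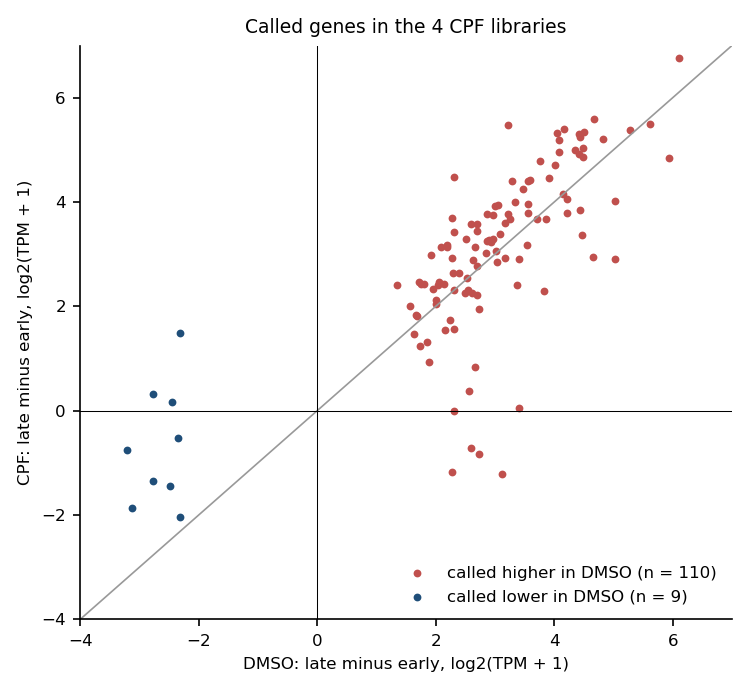
Late minus early difference in log2(TPM + 1) in DMSO (x axis) and CPF (y axis) libraries for the 119 genes called in DMSO; the grey line marks equal differences. Most red points lie near the line, while the red and blue points nearest 0 or of the opposite sign in CPF are mostly microRNA hairpins.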

How the data were processed

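RNA-seq libraries were made from 2 μg of total RNA of ICR embryonic kidneys, as the labels' protocols state. Trimmomatic, STAR and mm10 are named in the submitters' processing notes, without versions; the sources used here do not name the counter. The authors made 1 TPM value per RefSeq transcript, as deposited, for 32862 transcripts (28523 NM and 4339 NR). No header names the unit, which was read from the sum of 1000000 in each library. TPM keeps no depth; from the steps between low values, 1 read per kb was worth an estimated 0.107 to 0.142 rescaled TPM, with 64.3 to 66.9% of low values whole within a tolerance of 0.05.

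Values were rescaled so that NM transcripts sum to 1000000 and summed into 24151 gene symbols, of which 52 listed as dates were restored from the RefSeq table. Of 4777 symbols with several transcripts 27.6% had a DMSO mean of at least 1 TPM, against 61.6% of 19374 with 1 transcript, so their low values were not read as low expression. Genes with at least 1 TPM in at least 2 DMSO libraries were tested with limma 3.58.1 (R 4.3.3) on log2(TPM + 1), with trend and robust moderation, 2 libraries against 2 and 2 residual degrees of freedom. Calls are Benjamini-Hochberg adjusted p under 0.05. Differences of low genes are understated on this scale. The dependence on agent was tested in 1 fit of all 8 libraries with 4 groups. The procedure was tested on simulated data. RefSeq sequences and coordinates are from GRCm38.p6, the assembly that mm10 names.

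Genes named by rule had 1 NM transcript, a mean of at least 20 TPM and were the 12 largest differences each way among called genes, filled to 12 with genes whose sides did not overlap. From each list up to 4 called members, or else the 3 with the highest means, were eligible, and further members are given as levels. The libraries, the 38 lists and the tests were chosen with earlier results of these data known, so list counts are descriptions. Alternatives were other scalings, pseudocounts, filters, a slope over embryonic day, other fits and leaving out each library. Some members of the lists are counted but not reported here by name.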

Additional observations from a re-analysis of the deposited data

How the results depend on the processing

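The number of genes called was sensitive to the processing. All 110 higher and 9 lower genes kept their sign on deposited TPM and with quantile normalization; in the other alternatives the sign is fixed, since their sides do not overlap. The numbers higher and lower were 373 and 273 on deposited TPM (109 of the 110 and 9 of the 9 among them), 59 and 8 with quantile normalization, 11 and 0 with a pseudocount of 0.1, 121 and 10 with a pseudocount of 5, 143 and 5 with a filter of 5 TPM, 60 and 4 without robust moderation, 102 and 7 over genes with 1 transcript, and 403 and 144 for the slope over embryonic day (69 and 1 shared). With no filter limma called 0 and 0 (2016 genes at an unadjusted p under 0.05), and 0 and 0 when the spread was taken from all 8 libraries (1339 genes). Leaving out 1 library gave 91 to 556 higher and 22 to 217 lower, with 1 library alone on a side and assumed to vary as the others. The cause of these differences was not tested. The test of dependence on the agent called 0 genes in every alternative run. For late against early no paired analysis was possible because the sides share no stage. For the dependence on the agent, the fit with stage as a replicate block, chosen after seeing the data, called 0 genes (1724 at an unadjusted p under 0.05, against 1050). The few reads behind values near 1 TPM limit what can be seen of short or rare transcripts.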

Other observations

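Lists not described above held no called gene. Of 34 Hox genes 9 were above 0 (median log2 difference -0.22), with Hoxd10 at 162, 101, 127 and 97.8 TPM in stage order. Of 31 replication-dependent histone genes 10 were above 0 (median -0.10), and Hist1h4d was at 8329.9, 7571, 7237 and 6508 TPM. Of 60 cytoplasmic ribosomal protein genes 22 were above 0 (median -0.09). Of 12 Polycomb and DNA methylation genes 7 were above 0 (median 0.04), and Hdac2, a histone deacetylase, was at 513, 574, 485 and 389.7 TPM. Of 14 glycolysis genes 6 were above 0 (median -0.03). Of 35 secreted Wnt, BMP and Notch signal genes 22 were above 0 (median 0.09), and of 13 interferon and antigen presentation genes 12 were (median 0.65), with Ifitm3 at 21.9, 48.7, 76.1 and 87.9 TPM. The medians of the Polycomb and signal lists were below 0 on deposited TPM (-0.25 and -0.21).

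Small lists of other organs were described only by level. Of 5 tested adrenal cortex genes 2 were above 0 (median -0.61), and Star, the steroidogenic carrier, was at 12.3, 12.1, 8.62 and 6.8 TPM. Of 3 gonad and germ cell genes 1 was above 0 (median -0.13), and Sycp3, a meiotic protein, was at 12.51, 14.7, 24.1 and 45.4 TPM. Of 7 cartilage genes 2 were above 0 (median -0.29). Of 3 exocrine pancreas genes 2 were above 0 (median 0.42).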
